A study of Mus musculus with 6 samples.

Results

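The metabolite-sensing receptors of adipocytes examined here are 10 G protein-coupled receptors that bind fuels, fuel breakdown products or local lipid mediators. They are Ffar2, Ffar4, Hcar1, Hcar2, Sucnr1, Adora1, Adora2a, Ptger3, Ptger4 and Gpr84, and they were chosen by gene symbol from the 17924 genes of the deposited table. Of these 10 genes, 9 had a row, and Gpr84, a receptor for medium-chain fatty acids known from macrophages, was not analysed here. Dermal fibroblasts were taken from the dorsal skin of newborn (P0) C57BL/6J mice and kept for 14 days in adipocyte differentiation medium, and RNA was then sequenced from 3 biological replicates per group. All mice carried a Pdgfra-Cre transgene. The Nelfb-/- mice were Nelfb fl/fl, whereas CTL mice were Nelfb fl/wt or Nelfb wt/wt, and the labels do not say which CTL library had which of these genotypes. Cre was driven by Pdgfra, a gene of fibroblasts and adipocyte precursors, so other cells in the cultures need not have lost Nelfb, which encodes a subunit of the negative elongation factor that holds RNA polymerase II near promoters.

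Fat cells store triglyceride and release it by lipolysis, which is driven by cyclic AMP (cAMP). Receptors that couple to inhibitory G proteins lower cAMP and restrain lipolysis. Among them are Hcar1 for lactate, Hcar2 for the ketone body beta-hydroxybutyrate, Ffar2 for short-chain fatty acids, Sucnr1 for succinate, Adora1 for adenosine and Ptger3 for prostaglandin E2. Adora2a and Ptger4 bind adenosine and prostaglandin E2 as well but couple to stimulatory G proteins, and Ffar4 responds to long-chain unsaturated fatty acids. Several of these genes are known from macrophages too.

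Levels are given in CPM, the read share of a gene in its library scaled to 1e+06 reads, and take no account of how long a gene is. Depth lay between 17.2 and 29.4 M reads (M, 1e+06), and 3 reads, taken as the limit of detection, were worth 0.102 to 0.175 CPM. Genes that averaged 10 reads or more were tested with limma, and a gene was called when its adjusted p was at most 0.05 and its change at least 2-fold. Nelfb itself stood at 19.8 ± 2.53 CPM in the CTL group and decreased to 4.98 ± 0.938 CPM in the Nelfb-/- group (SD, n = 3 each, adjusted p of 0.0050 by limma). The adipocyte marker Adipoq ranged from 698 to 1857 CPM across CTL and from 488 to 802 CPM across Nelfb-/- libraries (log2 change -1.07, adjusted p of 0.14 by limma). Plin1 ranged from 782 to 1196 CPM across CTL and from 286 to 710 CPM across Nelfb-/- libraries (log2 change -1.02, adjusted p of 0.12 by limma). Neither was called here, although the study lists Adipoq as decreased in its own test of this RNA-seq. It also reports lower Adipoq and Plin1 by RT-qPCR and less Plin1 protein in Nelfb-/- cultures. Of 14 macrophage markers, 13 were called higher in Nelfb-/- cells, as were 7.58% of all genes tested.

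Ffar4 and Hcar1 decreased in Nelfb-/- cells and Ptger4 increased. In bulk RNA such as this, fewer cells of a type and less RNA per cell cannot be told apart. Of the 10 receptors 8 were tested, since Adora2a had fewer than 10 reads on average. Of these 8, 2 were called lower and 1 was called higher, whereas 3.64% of the 16252 genes tested were called lower and 7.58% were called higher. The remaining 5 receptors, Adora1, Hcar2, Sucnr1, Ffar2 and Ptger3, did not pass. The median log2 fold change of the 8 receptors was -0.94, and that of all genes tested was 0.068. All 3 Nelfb-/- libraries lay below the 3 CTL libraries at 3 receptors (16.1% of all genes tested), namely Ffar4, Hcar1 and Adora1, and above them at 1, Ptger4 (22.0% of all genes tested).

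**Figure D1:**
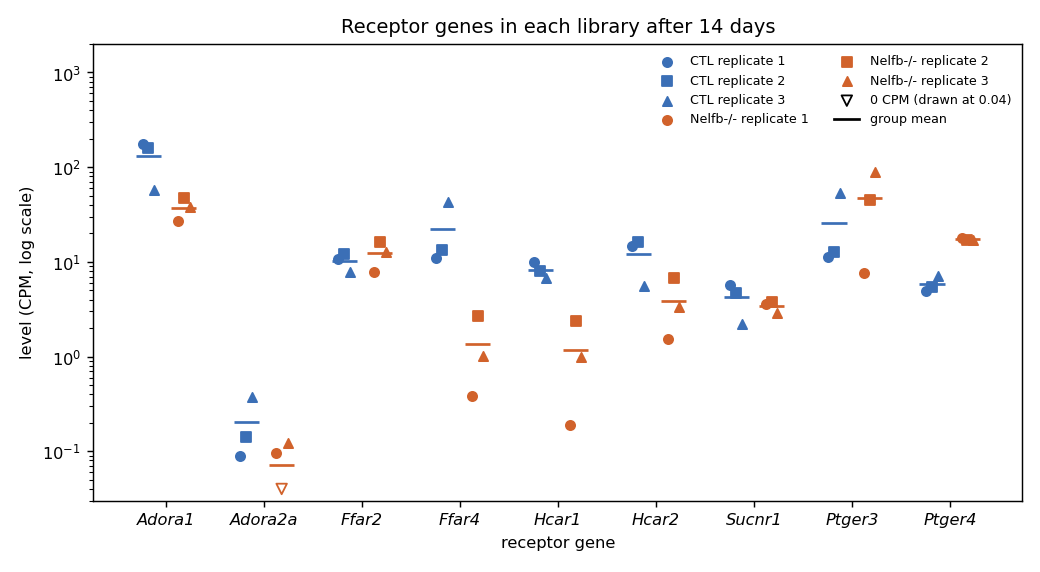
Level of each of the 9 receptor genes in CPM on a log axis, in the 3 CTL (blue) and 3 Nelfb-/- (orange) libraries, with the group means as bars. The Nelfb-/- libraries of Ffar4, Hcar1 and Adora1 lie below all CTL libraries, those of Ptger4 lie above, and Adora2a lies at or below 0.374 CPM throughout.

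The stretches of 250 bases before the annotated starts of the 3 called receptors are given here, because these are the promoters of the genes that moved. They were taken from RefSeq (GRCm38.p6) and are written 5′ to 3′ on the strand of the gene. Distances are counted from the RefSeq start. For Ffar4 and Hcar1 it differs from the gene start given below, so their stretches run a few bases into the gene as positioned there. Both strands were searched for AGGTCA, the core site of nuclear receptors such as Pparg, for the CCAAT box, for TATAAA of the core promoter, and for GGGCGG, the box bound by Sp1. Matches on either strand are in capitals.
Ffar4, chr19:38096829-38097078, plus strand: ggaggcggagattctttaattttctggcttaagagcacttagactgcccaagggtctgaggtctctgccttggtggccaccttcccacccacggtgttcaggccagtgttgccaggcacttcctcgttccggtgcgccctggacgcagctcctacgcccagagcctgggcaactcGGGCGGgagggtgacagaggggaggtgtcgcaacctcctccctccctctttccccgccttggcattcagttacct
Hcar1, chr5:123880004-123880253, minus strand: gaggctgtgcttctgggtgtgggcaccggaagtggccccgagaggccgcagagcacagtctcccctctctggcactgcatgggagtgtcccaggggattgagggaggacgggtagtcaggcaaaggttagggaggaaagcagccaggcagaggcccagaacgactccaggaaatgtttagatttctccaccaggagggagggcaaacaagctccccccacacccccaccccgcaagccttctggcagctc
Ptger4, chr15:5244188-5244437, minus strand: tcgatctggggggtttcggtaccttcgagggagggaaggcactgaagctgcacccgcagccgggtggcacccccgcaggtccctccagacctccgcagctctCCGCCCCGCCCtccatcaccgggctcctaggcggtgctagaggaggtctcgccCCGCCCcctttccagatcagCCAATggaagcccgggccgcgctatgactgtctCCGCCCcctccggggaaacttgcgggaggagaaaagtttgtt

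The Ffar4 promoter held 1 GGGCGG box, which began 75 bases before the start. The Hcar1 promoter held none of the 4 motifs. The Ptger4 promoter held 4 GGGCGG boxes, of which a pair overlapped, and 1 CCAAT box 75 bases before the start. Of 15267 promoters of genes in the table, 54.2% held a GGGCGG box, 7.67% held at least 4, 35.1% held CCAAT, 11% held AGGTCA and 7.25% held TATAAA. The share of G and C was 61.2% in the Ffar4 promoter, 62.4% in that of Hcar1 and 66.8% in that of Ptger4, with a median of 59.2% over the promoters of the table. Letters that match a motif are not evidence of binding, and none of the 4 motifs was common to the 3 promoters.

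Ffar4 (ENSMUSG00000054200, chromosome 19 from 38097071 to 38114263, plus strand) had the largest change among the receptors. It read 11, 13.4 and 43.0 CPM in CTL libraries 1 to 3, against 0.379, 2.68 and 1.02 CPM in Nelfb-/- libraries 1 to 3. The groups were apart, and CTL replicate 3 stood well above the other CTL libraries. Its values were equal to 244, 287 and 1265 reads in CTL and to 8, 46 and 25 reads in Nelfb-/- cells. The log2 fold change was -4.11 (SE 0.79, adjusted p of 0.020 by limma), which is 17.3-fold. It was 11.4-fold without CTL replicate 3, 10.9-fold without Nelfb-/- replicate 1 and 27.6-fold without Nelfb-/- replicate 2. Ffar4 was not called without CTL replicate 1 (adjusted p of 0.051 by limma), CTL replicate 2 (adjusted p of 0.062 by limma) or Nelfb-/- replicate 3 (adjusted p of 0.080 by limma). Ffar4, Hcar1 and Adora1, and Plaat3 given below, are also on lists that the study drew from these libraries. The direction of these genes here is therefore not independent evidence.

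Hcar1 (ENSMUSG00000049241, chromosome 5 from 123876736 to 123880020, minus strand) and Hcar2 (ENSMUSG00000045502, chromosome 5 from 123863570 to 123865499, minus strand) are neighbours with 11236 bases between them, and each is annotated as a single exon. Hcar1 read 10.01, 8.03 and 6.70 CPM in CTL libraries 1 to 3, against 0.190, 2.39 and 0.979 CPM in Nelfb-/- libraries 1 to 3, so that the groups did not overlap. In Nelfb-/- replicate 1 the level came from 4 reads, just above the limit of detection. The log2 fold change of Hcar1 was -3.29 (SE 0.81, adjusted p of 0.040 by limma), or 9.79-fold. Without Nelfb-/- replicate 1, the library with 4 reads, it was 5.18-fold, and without Nelfb-/- replicate 2 it was 16.7-fold, and Hcar1 was called in both cases. It lost its call without CTL replicate 1, 2 or 3 or Nelfb-/- replicate 3 (adjusted p of 0.059 to 0.13 by limma) and in limma without the abundance trend (adjusted p = 0.053).

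Hcar2 had 14.7, 16.2 and 5.61 CPM in CTL replicates 1, 2 and 3. In Nelfb-/- replicates 1, 2 and 3 it had 1.52, 6.75 and 3.35 CPM. CTL replicate 3 lay below Nelfb-/- replicate 2, and the log2 fold change of -1.74 (SE 0.63, 95% interval -3.26 to -0.23, not adjusted for the number of genes) did not pass (adjusted p of 0.11 by limma). In both groups the library with the highest Hcar2 level was replicate 2, whereas for Hcar1 it was CTL replicate 1 and Nelfb-/- replicate 2. The longest reading frames of the Hcar1 and Hcar2 transcripts were identical at 64.7% of 1043 aligned bases, and 0 windows of 50 bases were common to their transcripts.

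Adora1 (ENSMUSG00000042429, chromosome 1 from 134199223 to 134235431, minus strand) had the highest mean level per exon length of the family in CTL cells, where its libraries overlapped those of Ffar4. It read 175, 160 and 57.0 CPM in CTL libraries 1 to 3, against 27.2, 47.4 and 37.8 CPM in Nelfb-/- libraries 1 to 3. No Nelfb-/- library reached the lowest CTL level, but CTL replicate 3 was closer to the Nelfb-/- libraries than to the other CTL libraries. The log2 fold change was -1.68 (SE 0.46, 95% interval -2.77 to -0.58), just outside the limit (adjusted p of 0.053 by limma), and without CTL replicate 3 it was -2.20 and passed (adjusted p of 0.0072 by limma). Without any other single library it did not pass (log2 fold change -1.87 to -1.39, adjusted p of 0.096 to 0.17 by limma). With libraries of the same number treated as blocks it passed (adjusted p of 0.035 by limma), although the numbers were not taken as pairs. The exons of Adora1 share 1162 bases with those of Mybph on the opposite strand, and how reads there were assigned is not given in the sources used here. None of the 6 Adora1 values was a whole number of reads. Mybph itself ranged from 0.0475 to 0.399 CPM across CTL and from 2.46 to 3.72 CPM across Nelfb-/- libraries.

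Adora2a (ENSMUSG00000020178, chromosome 10 from 75316877 to 75334784, plus strand), the stimulatory adenosine receptor, was close to the limit of detection. It was measured with 2, 3 and 11 reads in CTL replicates 1, 2 and 3 and with 2, 0 and 3 reads in Nelfb-/- replicates 1, 2 and 3. The 0 reads in Nelfb-/- replicate 2 allow a level of up to 0.175 CPM, for counting error only. CTL replicate 3 was the only library above 3 reads, and a difference was not detectable at this depth.

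Ptger4 (ENSMUSG00000039942, chromosome 15 from 5206661 to 5244187, minus strand), the stimulatory receptor for prostaglandin E2, was the receptor called higher. It read 4.88, 5.37 and 7.11 CPM in CTL libraries 1 to 3, against 17.8, 17.2 and 16.9 CPM in Nelfb-/- libraries 1 to 3. The groups were far apart, with little spread among the Nelfb-/- libraries. The log2 fold change was 1.59 (SE 0.20, adjusted p of 0.0064 by limma), or 3.02-fold, and Ptger4 was called in all 13 alternatives (adjusted p of 0.0047 to 0.047 by limma). Its exons share 82 bases with those of Ttc33 on the opposite strand, which ranged from 21.5 to 28.1 CPM across CTL and from 21.9 to 31.5 CPM across Nelfb-/- libraries. They also share 1015 bases with Gm15937, a processed pseudogene on the opposite strand that was not analysed here.

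The macrophage markers moved in the same direction as Ptger4. The 14 markers summed to between 227 and 817 CPM across CTL libraries and between 2209 and 6871 CPM across Nelfb-/- libraries, and 13 of them were called higher, with Cd68 as the exception (adjusted p of 0.16 by limma). None of the 14 was at or below the limit of detection in all libraries. The defining markers Ptprc, Adgre1 and Csf1r lay at 2.86 to 9.11, 9.55 to 29.3 and 12.3 to 22.6 CPM across CTL libraries and at 16.9 to 71.3, 80.1 to 223 and 87.0 to 206 CPM across Nelfb-/- libraries. Among Nelfb-/- libraries the marker sum was highest in replicate 1 and lowest in replicate 2, while Ptger4 stayed between 16.9 and 17.8 CPM. Of the other cell types, 5 of 6 melanocyte markers, 5 of 5 skeletal muscle markers and 3 of 5 Schwann cell markers tested were called higher too, where 7.58% of all genes were, and 1 Schwann cell marker (Mbp) was called lower. Of the keratinocyte markers 2 of 5 tested were called higher, with sums of 3.29 to 3.55 CPM across CTL and 7.92 to 19.3 CPM across Nelfb-/- libraries, and of the endothelial markers 1 of 6. The 1 neutrophil marker tested was not called, and the 8 lymphocyte markers were not analysed here. The melanocyte sums overlapped, at 48.6 to 73.7 CPM across CTL and 51.9 to 168 CPM across Nelfb-/- libraries, with 47.2 to 72.4 CPM of the former from Mitf, the marker that was not called. The part of these cells in the increase of Ptger4 was not tested.

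**Figure D2:**
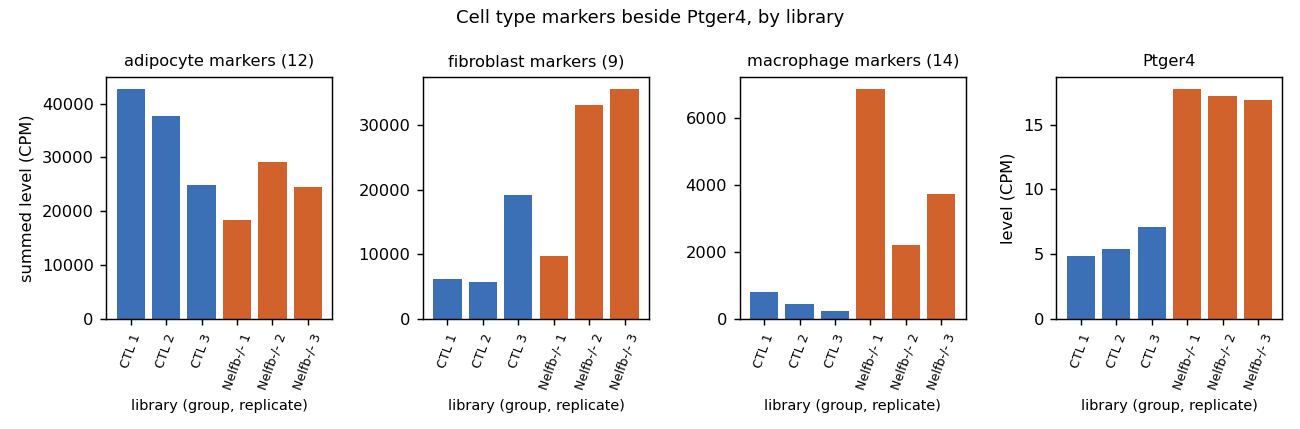
Summed CPM of the adipocyte, fibroblast and macrophage markers and the CPM of Ptger4 in each library (bars, CTL blue and Nelfb-/- orange, all axes from 0). The macrophage sum is between 2209 and 6871 CPM in Nelfb-/- libraries and at most 817 CPM in CTL libraries, the fibroblast sum is lowest in CTL replicates 1 and 2, and Ptger4 is even across the Nelfb-/- libraries.

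Ptger3 (ENSMUSG00000040016, chromosome 3 from 157566892 to 157645888, plus strand), the inhibitory receptor for the same ligand, varied more within each group than between them. It read 11.3, 12.7 and 53.6 CPM in CTL libraries 1 to 3, against 7.63, 44.7 and 88.2 CPM in Nelfb-/- libraries 1 to 3. CTL replicate 3 and Nelfb-/- replicates 2 and 3 were high and the other 3 libraries were low, a spread of 4.76 times within CTL and 11.6 times within Nelfb-/- cells. The log2 fold change was 0.66 (SE 1.0, 95% interval -1.74 to 3.05, adjusted p of 0.69 by limma), an interval that leaves room for a large change either way. The 9 fibroblast markers, none of which was called, summed to 6238, 5646 and 19206 CPM in CTL replicates 1, 2 and 3 and to 9797, 33061 and 35585 CPM in Nelfb-/- replicates 1, 2 and 3. The same 3 libraries thus had the highest fibroblast sums, most of which came from Col1a1, Col1a2 and Col3a1. Dcn and Pdgfra did not follow this order, whereas the other markers did. Dcn was lowest in CTL replicate 3 (310 CPM), where Pdgfra (444 CPM) was below its level in Nelfb-/- replicate 1 (476 CPM). The part of fibroblast RNA in the level of Ptger3 was not tested.

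Ffar2 and Sucnr1 did not pass in any of the 13 alternatives. Ffar2 (ENSMUSG00000051314, chromosome 7 from 30818348 to 30823775, minus strand) read 10.7, 12.2 and 7.85 CPM in CTL libraries 1 to 3, against 7.87, 16.4 and 12.6 CPM in Nelfb-/- libraries 1 to 3. The groups overlapped, with a log2 fold change of 0.22 (SE 0.32, 95% interval -0.54 to 0.98, adjusted p of 0.67 by limma). Sucnr1 (ENSMUSG00000027762, chromosome 3 from 60081869 to 60087566, plus strand) read 5.73, 4.71 and 2.21 CPM in CTL libraries 1 to 3, against 3.604, 3.78 and 2.90 CPM in Nelfb-/- libraries 1 to 3. Here the Nelfb-/- libraries lay within the range of the CTL libraries, with an estimated log2 change of -0.20 (SE 0.39, 95% interval -1.13 to 0.74, adjusted p of 0.76 by limma). The interval of Ffar2 stops just short of a 2-fold increase, and that of Sucnr1 does not exclude a 2-fold decrease. Neither interval is adjusted for the number of genes, and without Nelfb-/- replicate 1 the log2 change of Ffar2 was 0.51.

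**Figure D3:**
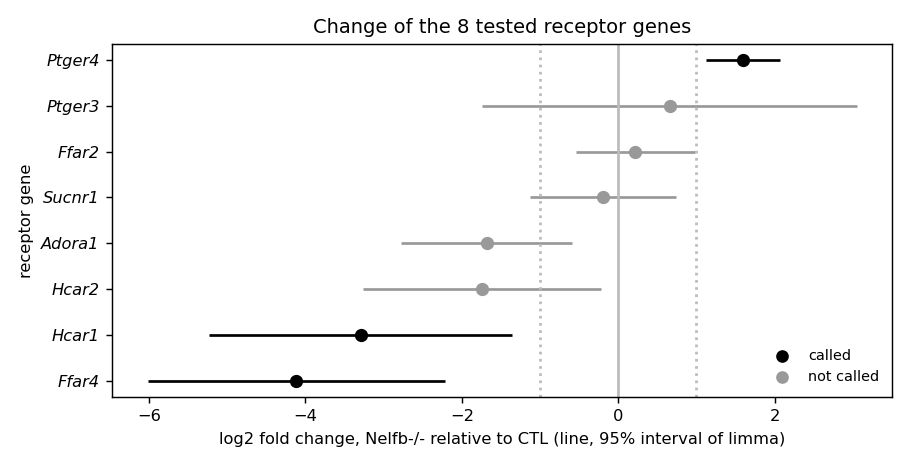
Log2 fold change of each of the 8 tested receptors in Nelfb-/- relative to CTL cells (points) with the 95% interval from limma (lines) and 2-fold limits (dotted). Ffar4 at -4.11 and Hcar1 at -3.29 were called lower and Ptger4 at 1.59 was called higher (black), and the interval of Ptger3 runs from -1.74 to 3.05.

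The receptors also differed in which library stood apart. Relative to its own mean of log2 values over the 6 libraries, Ffar4 was highest in CTL replicate 3 at 3.27 and lowest in Nelfb-/- replicate 1 at -3.39. Nelfb-/- replicate 1 was the lowest of all libraries for Ffar4, Hcar1, Hcar2, Adora1 and Ptger3 and the highest for Ptger4. The same library had the lowest adipocyte marker sum, 18412 CPM against 24527 and 29218 CPM in the other Nelfb-/- libraries and 24927 to 42774 CPM in CTL. CTL replicate 3 was the lowest CTL library for Hcar1, Hcar2, Adora1, Sucnr1 and Ffar2 but the highest for Ffar4, Ptger3 and Ptger4, and it had the lowest adipocyte sum in CTL. Of the 12 adipocyte markers, 1 (Retn) was called lower and 1 (Lep) higher, beside 3.64% and 7.58% of all genes, and none was at the limit of detection in all libraries. Besides Retn, the Nelfb-/- libraries of Plin1, Fabp4 and Pparg lay below all CTL libraries, with log2 changes of -1.02, -1.04 and -0.51 that did not pass, and 16.1% of all genes lay so. The groups overlapped at all other markers but Lep, and none of these was called. Among them Car3 and Cidec had positive log2 changes (0.80 and 0.029), and Adipoq, Lpl, Cebpa, Lipe and Cfd had negative ones. The part of adipocyte content in these receptor levels was not tested.

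**Figure D4:**
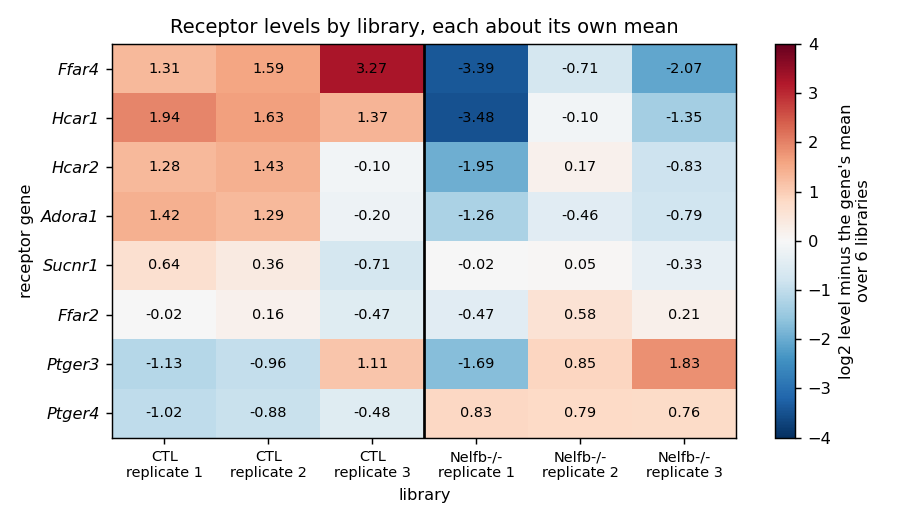
Log2 level of each tested receptor (rows) in each library (columns) minus the mean of that receptor over the 6 libraries, with the value in each cell and the genotypes parted by the black line. Ffar4, Hcar1, Hcar2 and Adora1 are lowest in Nelfb-/- replicate 1, and Ptger3 is high in CTL replicate 3 (1.11) and in Nelfb-/- replicates 2 and 3 (0.85 and 1.83).

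**Figure D5:**
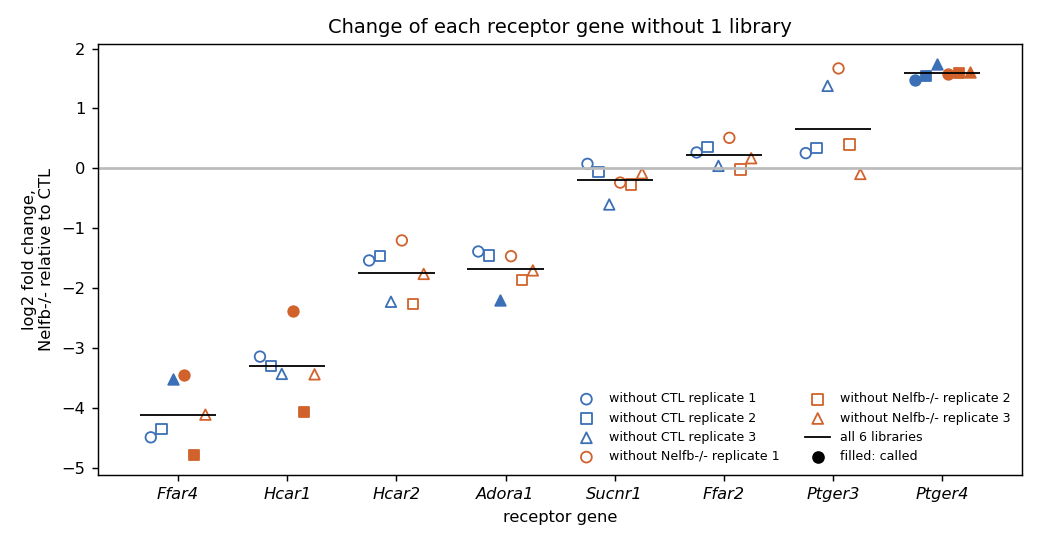
Log2 fold change of each receptor with single libraries omitted (symbols, filled where the gene was called) and with all 6 libraries (black bars). Ptger4 stayed between 1.48 and 1.75 and was called each time, Ffar4 stayed between -4.79 and -3.45 and Hcar1 between -4.06 and -2.37, and the values of Ptger3, Sucnr1 and Ffar2 lay on both sides of 0.

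To compare the receptors with each other, CPM was divided by the length of all annotated exons in kilobases (kb). In CTL cells the levels in CPM per kb were 22.6 ± 11.1 (SD, n = 3) for Adora1, 16.0 ± 12.7 for Ffar4, 6.30 ± 2.96 for Hcar2, 4.55 ± 4.23 for Ptger3, 3.68 ± 0.789 for Ffar2, 2.57 ± 1.10 for Sucnr1, 2.51 ± 0.508 for Hcar1, 0.870 ± 0.176 for Ptger4 and 0.0658 ± 0.0495 for Adora2a. Neighbours in this order overlapped in their libraries down to Hcar1, whereas Hcar1, Ptger4 and Adora2a were apart from one another. In Nelfb-/- cells the levels in CPM per kb were 8.24 ± 7.09 for Ptger3, 6.48 ± 1.75 for Adora1, 4.41 ± 1.52 for Ffar2, 2.60 ± 0.0649 for Ptger4, 2.09 ± 0.286 for Sucnr1, 2.01 ± 1.38 for Hcar2, 0.970 ± 0.847 for Ffar4, 0.361 ± 0.339 for Hcar1 and 0.0236 ± 0.0210 for Adora2a. Here the neighbours Ffar2 and Ptger4, Ptger4 and Sucnr1, and Hcar1 and Adora2a did not overlap, and the other neighbours did. By mean level per kb, Ffar4 was number 2 of 9 in CTL and number 7 in Nelfb-/- cells, and Ptger4 was number 8 in CTL and number 4 in Nelfb-/- cells.

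For each called receptor, the protein-coding genes with the most alike pattern were sought among the 13578 tested, by the root mean square difference of log2 values over the 6 libraries after each gene was centred on its own mean. Close to Ffar4 was Cox7a1 (0.35), where the median over all genes was 2.34. Cox7a1 read 12.6, 7.51 and 37.1 CPM in CTL libraries 1 to 3, against 0.332, 1.63 and 0.898 CPM in Nelfb-/- libraries 1 to 3, and thus had the same high CTL replicate 3. The closest to Hcar1 were Lin7a (0.37) and Prrt2 (0.48), both under 4 CPM in all libraries, with a median over all genes of 1.998. In Nelfb-/- replicate 1 Lin7a read 0 CPM and Prrt2 0.0148 CPM, below the limit of detection. Lin7a was near that limit in Nelfb-/- replicates 2 and 3 as well (0.233 and 0.163 CPM). The closest to Ptger4 were Clip4 (0.10) and Nr4a1 (0.12), with a median of 0.86, and Nr4a1 spanned 10.9 to 15.9 CPM across CTL and 32.1 to 38.6 CPM across Nelfb-/- libraries.

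None of the tested relatives of the receptors was called lower in Nelfb-/- cells. Of 21 relatives and other metabolite receptors 10 were tested, 0 were called lower and 2 were called higher, beside the shares of 3.64% and 7.58% over all genes, and their median log2 fold change was 0.70. At an unadjusted p under 0.05 in limma, 0 of them were lower as well, and Gpr4, a proton-sensing receptor, had a log2 change of -1.15 (adjusted p of 0.22 by limma). Gpr65, a further proton-sensing receptor known from leukocytes, rose from 0.442 ± 0.399 to 7.52 ± 3.35 CPM (SD, n = 3 each), a log2 change of 4.15 (SE 0.64 and adjusted p of 0.011 by limma), and it was not called without Nelfb-/- replicate 3 and was 27.4-fold rather than 17.7-fold without CTL replicate 1. The macrophage sums given above were higher in the same libraries, and their part in Gpr65 was not tested. Ptgfr, the receptor for prostaglandin F2alpha, rose from 10.7 ± 1.53 to 53.6 ± 23.5 CPM (log2 change 2.21 with SE 0.38 and adjusted p of 0.014 by limma), and it was not called without CTL replicate 1 or 2 or Nelfb-/- replicate 2 or 3.

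The remaining relatives did not pass. The adenosine receptor Adora2b averaged 0.434 ± 0.402 CPM across CTL and 1.49 ± 0.235 CPM across Nelfb-/- libraries, with the groups apart (log2 fold change 2.19, adjusted p of 0.12 by limma). Ptger1, a further prostaglandin E2 receptor, also had its groups apart at 3.31 ± 0.537 and 5.88 ± 1.72 CPM (adjusted p of 0.13 by limma). Ptger2, which like Ptger4 couples to stimulatory G proteins, spanned 2.34 to 5.41 CPM across CTL libraries but read 26.9, 2.21 and 3.14 CPM in Nelfb-/- replicates 1, 2 and 3, so that only Nelfb-/- replicate 1 was high. Ptgir and Tbxa2r, the receptors for prostacyclin and thromboxane, and Gpr35 had overlapping groups and log2 changes of 0.64, 0.77 and 0.13, respectively.

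The genes that supply or remove the ligands gave calls in both directions, to be read beside the 3.64% lower and 7.58% higher over all genes. For prostaglandin E2, all 13 genes were tested, with 2 (15.4%) called lower, 1 (7.69%) called higher and a median log2 fold change of -0.70. Ptges, the inducible prostaglandin E synthase, fell from 126 ± 29.8 CPM (SD, n = 3) to 37.7 ± 8.59 CPM (log2 fold change -1.74, SE 0.24, adjusted p of 0.0085 by limma), and Plaat3, a phospholipase of adipocytes, had a log2 fold change of -1.87 (adjusted p of 0.016 by limma). Hpgd, which breaks prostaglandin E2 down, rose by 1.67 (adjusted p of 0.020 by limma). Ptges was called whichever library was left out, while the calls of Plaat3 and Hpgd were lost without CTL replicate 1 or 2 or Nelfb-/- replicate 3, and that of Hpgd also without Nelfb-/- replicate 2.

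For adenosine, 17 of 18 genes were tested, 3 (17.6%) were called lower and 6 (35.3%) higher, and the median log2 fold change was 0.45. Nt5e, the ectoenzyme that makes adenosine from AMP, fell from 151 ± 78.6 to 21.8 ± 12.7 CPM (log2 fold change -2.92, SE 0.62, adjusted p of 0.026 by limma), and was not called without CTL replicate 1 or 2 or Nelfb-/- replicate 2 or 3. Its fold was 7.59, and 4.77 without Nelfb-/- replicate 1. Slc28a2, a nucleoside transporter, Cd38, an ectoenzyme that uses NAD and is abundant in leukocytes, and Ada, which deaminates adenosine, rose by log2 fold changes of 4.55, 2.996 and 2.74 (adjusted p of 0.0075, 0.012 and 0.036 by limma). The call of Slc28a2 held whichever library was left out, that of Cd38 was lost without Nelfb-/- replicate 3, and that of Ada was lost in the same 4 fits as that of Nt5e, with a fold of 6.68 and of 4.30 without CTL replicate 2. Cd38 read 110, 34.7 and 50.8 CPM in Nelfb-/- libraries 1 to 3, in the order of the macrophage sums of 6871, 2209 and 3729 CPM, and the part of macrophage RNA in the adenosine genes called higher was not tested.

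For lactate and ketone bodies, all 15 genes were tested, 4 (26.7%) were called lower and 2 (13.3%) higher, and the median log2 fold change was -0.56. Emb, a partner of lactate transporters, rose by 2.55 (adjusted p of 0.0058 by limma), and Slc16a6, a ketone body exporter, by 1.85 (adjusted p of 0.023 by limma). Ldhd, which oxidises D-lactate, had a log2 fold change of -2.34 (adjusted p of 0.013 by limma). Emb was called whichever library was left out, Slc16a6 was lost without CTL replicate 1 or 2 or Nelfb-/- replicate 3, and Ldhd was lost without CTL replicate 2 or Nelfb-/- replicate 3. For succinate, all 12 genes were tested and 0 were called in either direction by limma, but all 12 had a negative log2 fold change, as 45.4% of all genes tested did, with a median of -0.51. Among them 3, Sdha, Sdhd and Suclg2, had an adjusted p of at most 0.05 (adjusted p of 0.013, 0.019 and 0.023 by limma) with less than a 2-fold change, where 5.83% of all genes were lower at that p with any fold. At an unadjusted p under 0.05, 6 of the 12 were lower, and 12.9% of all genes.

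Downstream of the receptors, 46 genes of G proteins and cAMP signalling were all tested, 3 (6.52%) were called lower and 5 (10.9%) higher, not far from the 3.64% and 7.58% over all genes, and the median log2 fold change was 0.22. Adcy7, an adenylyl cyclase, and Arrb2, an arrestin, had log2 fold changes of 2.24 and 1.83 (adjusted p of 0.014 and 0.025 by limma). Both were, like the macrophage sum, highest in replicate 1 and lowest in replicate 2 of the Nelfb-/- libraries, and the part of macrophage RNA in them was not tested. Pde4d and Pde3b, which break down cAMP, had log2 fold changes of -1.45 and -1.37 (adjusted p of 0.047 and 0.021 by limma), and Pde3b fell from 655 ± 135 CPM (SD, n = 3) to 258 ± 72.0 CPM. The other genes called were Gnai1, Adcy3 and Pde7b, which were higher, and Gnao1, which was lower, and these were named after their values were seen. Gnao1 was called whichever library was left out, and the other 7 were lost without Nelfb-/- replicate 3 and also without CTL replicate 1, and all of them but Adcy7 without further libraries too.

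Of the 16 lipolysis proteins under cAMP, all were tested, 3 (18.8%) were called lower and 1 (6.25%) higher, beside 3.64% and 7.58% of all genes, and the median log2 fold change was -0.59. Adra2a, an adrenergic receptor that also couples to inhibitory G proteins, rose from 2.21 ± 0.532 CPM to 30.6 ± 9.20 CPM (log2 fold change 3.74, SE 0.31, adjusted p of 0.0033 by limma), and its call held whichever library was left out. Npr1, the receptor for natriuretic peptides, fell from 24.5 ± 13.7 to 1.60 ± 0.540 CPM (log2 fold change -3.71, adjusted p of 0.010 by limma), and Aqp7, a glycerol channel, from 49.0 ± 10.7 to 17.0 ± 5.35 CPM (log2 fold change -1.56, adjusted p of 0.018 by limma). The call of Npr1 was lost without Nelfb-/- replicate 3 (its fold was 13.1, and 20.3 without CTL replicate 3), and those of Aqp7 and Pde3b without CTL replicate 1 or 2 or Nelfb-/- replicate 3.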

How the data were processed

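RNA-seq libraries of 3 CTL and 3 Nelfb-/- cultures were analysed. The authors deposited 1 table of values in CPM, to which they had added an offset of 0.0001 (columns less the offset total 1e+06). The submitters' processing notes name STAR (2.7) and Partek (9.0.20.0202), and the study names the mm10 genome. The counting step is not given in the sources used here. Depth was read from the lowest values, which rose in equal steps. Between 69.3% and 72.0% of values up to 20 reads lay within 0.02 reads of a whole number, too few for a count-based test, although 47 of the 54 receptor values were whole (0 of 6 for Adora1 and 5 of 6 for Ptger4). Values were multiplied by the common depth of 22.3 M reads, genes averaging 10 reads (0.448 CPM) or more were kept, and log2(value + 1) was tested with limma (3.58.1, R 4.3.3) with an abundance trend. On this scale the changes of low genes are understated. Benjamini-Hochberg adjustment covered every gene tested, with the limits of the study (0.05 and 2-fold). With 3 libraries per group no exact two-sided permutation test of 1 gene can go under 0.1. Positions were taken from GENCODE vM21 (GRCm38), in which 99.0% of 17520 genes matched by name had the start and end of the deposited table. RefSeq promoters were found for 8 of the 10 receptors. There were 13 alternatives. Genes named are the receptors, their relatives, up to 4 called genes by size of fold from each other list, and the 2 genes most alike each called receptor. The receptors and the lists were chosen with earlier results of these data known. A few genes that this rule would name are not reported here.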

Additional observations from a re-analysis of the deposited data

How the results depend on the processing

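Of the receptors, Ptger4 was called higher in all 13 alternatives, and the number called higher was 1 throughout. The number called lower was 2, and 1 in limma without the abundance trend, 3 with a replicate block, where Adora1 was added (limma, adjusted p = 0.035), and 0 to 2 with a library omitted. Hcar2, Ffar2, Sucnr1 and Ptger3 were called in none. The direction turned for Ffar2 without Nelfb-/- replicate 2 (-0.016), for Sucnr1 without CTL replicate 1 (0.075) and for Ptger3 without Nelfb-/- replicate 3 (-0.094), and in none of these was the gene called. With a library omitted, their log2 changes ran from -0.016 to 0.51, from -0.60 to 0.075 and from -0.094 to 1.67. The deviations of libraries with the same number correlated at 0.52 for number 1, -0.39 for number 2 and 0.52 for number 3, and since number 2 did not deviate together the numbers were not taken as pairs. CTL replicate 3 correlated better with Nelfb-/- replicate 2 (0.54) than with its own number. With the replicate block, 670 genes were called lower and 1505 higher. Over all genes, 136 to 776 were called lower and 290 to 1703 higher when each library was left out.

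Among the other lists, without the abundance trend the calls were 3 higher in G protein and cAMP signalling, 2 lower in lactate and ketone body supply and 1 lower in adenosine supply. Median-ratio scaling gave 1 lower in succinate supply, and the replicate block gave 4 lower in prostaglandin E2 supply. When each library was left out, the calls were 0 to 3 higher for the relatives, 1 to 3 lower and 0 to 8 higher for G protein and cAMP signalling, 0 to 4 lower and 1 to 2 higher for lipolysis, 1 to 3 lower and 1 to 2 higher for lactate and ketone bodies, 0 to 3 lower and 3 to 7 higher for adenosine, and 1 to 4 lower and 0 to 2 higher for prostaglandin E2. Of the 31 genes called in these lists, 8 were called in all 6 such fits. The cause was not tested. Depth limited Adora2a, with at most 11 reads, and the Nelfb-/- levels of Hcar1 and Ffar4, with 4 and 8 reads in replicate 1.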

Other observations

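The genes most alike the receptors that were not called were also sought, a choice made after the data were seen. The closest to Ptger3 were Sorcs2 and Bean1, with root mean square differences of 0.26 and 0.28 on the log2 scale over the 6 libraries and a median over all genes of 1.35. Sorcs2 read 11.7, 9.89 and 43.8 CPM in CTL libraries 1 to 3, against 8.16, 33.1 and 57.1 CPM in Nelfb-/- libraries 1 to 3, and was thus high in the same 3 libraries as Ptger3. The closest to Adora1 were Pnck (0.14) and Sema4a (0.15), and Pnck was also the closest to Hcar2 (0.35). Pnck read 1.13, 1.07 and 0.306 CPM in CTL libraries 1 to 3, against 0.142, 0.349 and 0.245 CPM in Nelfb-/- libraries 1 to 3. Sucnr1 was closest to Stard10 (0.080), and Ffar2 to Slc25a25 (0.11).

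Lep, an adipocyte marker in the list above, read 0.180, 0.373 and 2.04 CPM in CTL libraries 1 to 3, against 10.3, 32.4 and 33.0 CPM in Nelfb-/- libraries 1 to 3, opposite to Retn, which had 206 to 470 CPM in CTL and 64.6 to 103 CPM in Nelfb-/- cells. Both were called (adjusted p of 0.014 and 0.013 by limma).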
